A study of Mus musculus with 4 samples.

Results

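Oxidative phosphorylation genes encode the subunits of the mitochondrial respiratory chain and of ATP synthase. They were chosen by symbol alone, as every gene named for a subunit of complexes I to V (Nduf, Sdh, Uqcr, Cox4 to Cox8 and Atp5 symbols) or for 1 of the protein-coding genes of the mitochondrial genome. The rule found 100 of the 32227 genes counted, of which 87 are nuclear and 13 lie on chromosome M. By symbol, 39 nuclear members belong to complex I, 4 to complex II, 8 to complex III, 19 to complex IV and 17 to complex V, and the mitochondrial members give 7, 1, 3 and 2 to complexes I, III, IV and V. The nuclear members of complex IV include Cox5b-ps, by its symbol a pseudogene of Cox5b, and whether its UMIs come from Cox5b was not tested. Assembly factors, cytochrome c1 (Cyc1) and Ndufab1 carry other symbols and are not members.

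The RNA came from CD11b+ cells of the cortex of wild-type (WT) mice at postnatal day 15. All mice had received an adeno-associated virus in the cortex at P0 or P1, which carried mCherry in the control group and Hevin, a matricellular protein secreted by astrocytes (gene Sparcl1), in the other, both under the astrocyte promoter GfaABC1D. Actinomycin D, triptolide and anisomycin, which block transcription or translation, were present during dissection and dissociation in both groups, and CD11b+ cells were then selected on magnetic columns and captured with PIPseq. Each group had 2 libraries, and the labels do not say how many mice each library holds, so p-values measure the spread between libraries. Those of edgeR also draw on a spread pooled over genes, so a very small value does not rest on 1 gene's libraries alone. Values of all 4 libraries are given below in the order mCherry 1, mCherry 2, Hevin 1 and Hevin 2. Levels are plain CPM, the unique molecular identifiers (UMIs) of a gene scaled to the usual common total by the UMIs of that class in that library, and log2 fold changes come from edgeR's quasi-likelihood fit with TMM scaling, with their standard error.

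Complex I (NADH dehydrogenase) and complex II (succinate dehydrogenase) pass electrons to ubiquinone, complex III passes them to cytochrome c and complex IV to oxygen, and the proton gradient built on the way drives ATP synthase, complex V. The catalytic core of complexes I, III and IV is encoded partly by the mitochondrial genome, which is transcribed as long polycistronic RNAs, while complex II and nearly all accessory subunits are nuclear. Microglia at rest rely largely on this pathway and shift toward glycolysis on activation, and several complex IV subunits have tissue-specific or oxygen-dependent isoforms.

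Some promoters of the nuclear members hold motifs of factors known to drive respiratory genes, and the stretches below are shown because the results return to these genes. A RefSeq promoter window (250 bases before to 50 after the start site) was found for 69 of the 87 nuclear members. The NRF1 core GCGCATGC was present on either strand in 14.5% of these windows, against 3.05% of the windows of all 27025 genes with one. The YY1 motif AAGATGGC was present in 14.5% against 3.19%, the GABPA or ETS motif CCGGAAGT in 7.25% against 4.31%, and the cAMP response element TGACGTCA in 5.80% against 2.03%. Among 64 cytosolic ribosomal protein genes, NRF1 was in 4.69%, YY1 in 9.38%, ETS in 18.75% and the cAMP response element in 7.81%. The ETS motif and the cAMP response element were thus more frequent there than in the members. Each stretch is 60 bases upstream of the RefSeq start site, 5′ to 3′ on the gene's strand (GRCm38.p6), with the motif or its reverse complement in capitals. A match is a description of the letters and not a bound site. The stretches are Ndufa8 (NRF1, chr2:36049339-36049398, minus strand), Sdhb (NRF1, chr4:140961191-140961250, plus strand), Atp5k (NRF1, chr5:108434416-108434475, minus strand), Atp5g2 (NRF1, chr15:102671056-102671115, minus strand), Uqcrh (ETS, chr4:116075071-116075130, minus strand), Atp5h (ETS, chr11:115419925-115419984, minus strand), Atp5j (YY1, chr16:84835031-84835090, minus strand) and Ndufb2 (cAMP response element, chr6:39592505-39592564, plus strand).
Ndufa8: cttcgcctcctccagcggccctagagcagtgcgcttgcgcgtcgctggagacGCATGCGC
Sdhb: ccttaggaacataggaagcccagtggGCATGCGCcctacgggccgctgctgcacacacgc
Atp5k: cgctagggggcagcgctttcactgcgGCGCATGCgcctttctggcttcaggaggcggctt
Atp5g2: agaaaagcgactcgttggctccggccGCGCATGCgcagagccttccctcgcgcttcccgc
Uqcrh: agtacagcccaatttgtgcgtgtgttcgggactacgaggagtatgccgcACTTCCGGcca
Atp5h: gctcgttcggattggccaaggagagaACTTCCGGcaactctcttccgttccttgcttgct
Atp5j: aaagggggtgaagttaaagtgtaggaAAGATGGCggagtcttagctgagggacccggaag
Ndufb2: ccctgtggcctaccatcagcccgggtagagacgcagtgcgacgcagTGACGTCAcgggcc

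Cells were assigned to classes by gates on marker genes, none of which is a member. Microglia (at least 0.2% of UMIs from P2ry12, low Apoe) numbered 14279, 8915, 6180 and 5468. Apoe-high macrophages (at least 1.5% of UMIs from Apoe, with Ms4a7 and no Sall1) numbered 27, 15, 6949 and 4153, so nearly all of them came from the Hevin libraries, and mCherry 2, with fewer than 20, was left out of their fits. Border macrophages (Lyve1, Cd163, F13a1 and Mrc1) numbered 1149, 816, 1020 and 807, and endothelial cells (Cldn5, Flt1, Itm2a and Ly6c1) 256, 164, 269 and 140. Cells that passed no gate numbered 1976, 841, 5133 and 2333. Markers outside the gates followed the names in microglia, border macrophages and endothelial cells, and no such value is given for Apoe-high macrophages. Tmem119 lay between 1547 and 2014 CPM in microglia, Clec10a between 825 and 1154 CPM in border macrophages, and Slco1a4 between 803 and 910 CPM in endothelial cells against 3.56 to 8.46 CPM in microglia. Border macrophages held 169 to 389 CPM of the microglial gene Tmem119. Endothelial cells held 119 to 359 CPM of it, and in mCherry 1 they held 4221 CPM of the globin gene Hbb-bs, and the part of this RNA in the results below was not tested.

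The libraries held 49781430 to 67832685 UMIs in 10877 to 19855 barcodes, and any pair of libraries shared 1 to 7 barcodes. Depth differed with library: the median cell had 3349, 4037, 2317 and 3490 UMIs, and the shallowest deposited barcode 2038, 2993, 965 and 2178. In astrocytes, of which the CD11b selection left 40 to 83 cells per library, the level of Sparcl1 was 2146 and 2560 CPM with mCherry and 3000 and 4313 CPM with Hevin. No doublet caller was used.

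Of the 4 classes compared here, nuclear oxidative phosphorylation genes took the smallest share of UMIs in microglia and 1.68 times as much in endothelial cells, while the mitochondrial genes took about the same share in both. In microglia the 87 nuclear members together made up 1.45, 1.32, 1.45 and 1.39% of all UMIs. In endothelial cells they made up 2.38, 2.38, 2.30 and 2.35%, above every microglial value. The difference was 0.950 ± 0.0894 percentage points (SD, n = 4 libraries; 1.68-fold; exact two-sided sign-flip permutation p = 0.125, the smallest that 4 pairs allow). The 13 mitochondrial members made up 3.51, 2.93, 4.15 and 3.45% in microglia. In endothelial cells they made up 3.53, 3.55, 3.77 and 3.54%, higher in 3 of 4 libraries, by 0.0875 ± 0.409 percentage points (SD, n = 4, exact permutation p = 0.625). The ratio of mitochondrial to nuclear share was therefore lower in endothelial cells in every library, with a mean of 1.53 against 2.49 in microglia (exact permutation p = 0.125).

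Both macrophage classes lay between. In border macrophages the nuclear share was 1.68, 1.56, 1.60 and 1.57%, higher than in microglia in 4 of 4 libraries by 0.197 ± 0.0445 percentage points (SD, n = 4, exact permutation p = 0.125). In Apoe-high macrophages it was 1.84, 1.59 and 1.58% in mCherry 1, Hevin 1 and Hevin 2, higher than in microglia of the same library in 3 of 3 (by 0.239 ± 0.134 percentage points, SD, n = 3, exact permutation p = 0.25, the smallest possible). Endothelial cells did not overlap either macrophage class in this share, whereas border and Apoe-high macrophages overlapped each other. The same order was seen when every cell was thinned to 1000 UMIs: a microglial cell then showed UMIs of 12.7, 11.7, 12.5 and 12.1 nuclear members on average and an endothelial cell of 19.0, 19.3, 17.6 and 19.2. Thinning left out 123 microglia and 3 endothelial cells, all of Hevin 1. The nuclear share also differed with cell depth: in microglia of at least 4500 UMIs it was 1.49, 1.35, 1.57 and 1.46%. In Hevin 1 it was 1.37% in microglia of 1000 to 2000 UMIs. The gates for border macrophages and endothelial cells use fixed UMI counts, and the part of depth in the class differences was not tested.

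**Figure D1:**
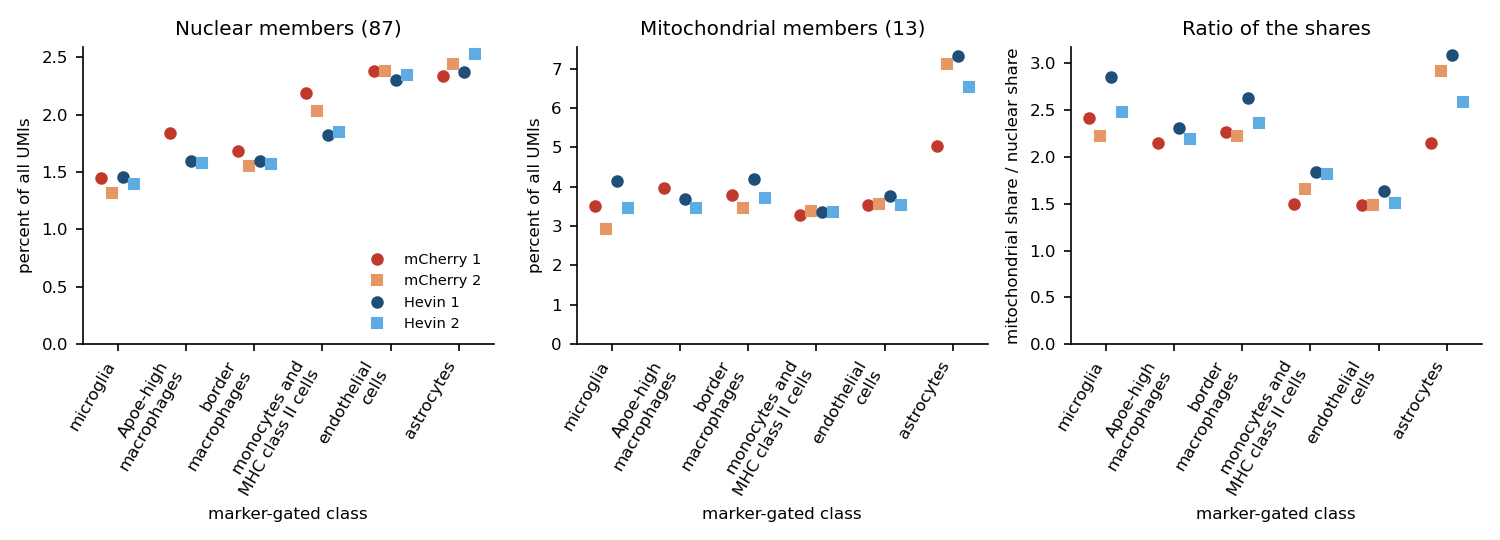
Percent of all UMIs taken by the 87 nuclear members (left) and the 13 mitochondrial members (middle), and the ratio of the 2 shares (right), in each marker-gated class, with 1 point per library. Nuclear shares lie between 1.32 and 1.45% in microglia and between 2.30 and 2.38% in endothelial cells, while mitochondrial shares of those classes overlap. The Apoe-high class of mCherry 2, with 15 cells, is not drawn.

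The mitochondrial share of border macrophages was 3.80, 3.47, 4.20 and 3.72%, higher than in microglia in 4 of 4 libraries by 0.286 ± 0.198 percentage points (SD, n = 4, exact permutation p = 0.125). Each class was next compared with microglia gene by gene, as sums of counts per library with the library as a block, so the 3 comparisons share the microglial libraries and are given side by side. Counts of called members use an adjusted p below 0.05 over all genes tested (Benjamini-Hochberg).

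In endothelial cells, most nuclear members of complexes I, III, IV and V were called higher than in microglia with TMM scaling, and none of complex II was. Of 83 nuclear members tested, 63 were higher and 4 lower, with a median log2 fold change of 0.57, where the median of all 15243 genes tested was -0.10 and 29% of them were called higher and 32.5% lower. Complex I had 29 higher and 2 lower of 38, complex III 7 higher of 8, complex IV 13 higher and 1 lower of 16, and complex V 14 higher of 17. The 13 of complex IV include Cox5b-ps. Of the 4 subunits of succinate dehydrogenase, none was called higher and 1 lower. As a share of all UMIs, which uses no TMM, complex II had 0.0497% in endothelial cells and 0.0453% in microglia. This share was higher in 4 of 4 libraries (1.10-fold, exact permutation p = 0.125), less than the 1.68-fold of all nuclear members. With library totals in place of TMM the nuclear counts were 69 higher and 2 lower.

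Within complex IV, Cox5a (chr9:57521274-57532426), a nuclear subunit on the matrix side, had the largest log2 fold change among members with a mean of at least 10 CPM. It stood at 459, 429, 451 and 447 CPM in endothelial cells and at 158, 147, 176 and 155 CPM in microglia, with no overlap. Its log2 fold change was 1.33 ± 0.08 (2.51-fold, edgeR adjusted p = 1.55e-08). Cox7a2, a small subunit of the same complex, followed with 0.91 ± 0.09.

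In complex I most accessory subunits, which surround the catalytic core, were higher. Of 31 accessory subunits tested, 27 were higher and 1 lower, with a median log2 fold change of 0.62. Of the 7 nuclear core subunits, which hold the flavin and the iron-sulfur clusters, 2 were higher and 1 lower, with a median of -0.03; the 2 were Ndufv1 (0.74 ± 0.08) and Ndufv2 (0.61 ± 0.08), both of the NADH-oxidising tip. Ndufa8, whose promoter stretch with the NRF1 core is shown above, stood at 255, 281, 278 and 295 CPM in endothelial cells. In microglia it stood at 108, 101, 99.0 and 101 CPM, and its log2 fold change was 1.27 ± 0.08 (adjusted p = 1.49e-08). Ndufa7 was higher by a similar amount (1.31 ± 0.08), and Ndufb6, Ndufs5, Ndufa4 and Ndufb2 each by between 1.03 and 1.04. Ndufa4 is counted in complex I by its symbol, although its protein is known as a subunit of complex IV.

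Complex III and ATP synthase moved likewise. Uqcrb, which binds ubiquinone in complex III, stood at 438, 483, 465 and 443 CPM in endothelial cells and 186, 165, 181 and 184 CPM in microglia (log2 fold change 1.19 ± 0.08, adjusted p = 8.55e-08). Uqcr10 followed with 1.07 ± 0.09. In ATP synthase all 5 subunits of the catalytic head were higher (median 0.53), as were 3 of the 4 stalk subunits (median 1.00) and 1 of the 3 genes for the c ring. Atp5j, coupling factor 6 of the stalk, had 793, 794, 817 and 755 CPM in endothelial cells and 318, 292, 316 and 307 CPM in microglia (log2 fold change 1.19 ± 0.08, adjusted p = 2.86e-08). Atp5j shares 397 exon bases with Gabpa on the other strand, and strand use in the counting is not stated in the sources read here.

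Genes around the module were mixed in endothelial cells. Assembly factors had 17 higher and 6 lower of 46, electron carriers 7 higher and 3 lower of 15, Krebs cycle genes 7 higher and 4 lower of 18, and mitochondrial ribosomal proteins 43 higher and 9 lower of 78. Regulators of mitochondrial gene expression went the other way, with 1 higher and 10 lower of 17, among them Tfam (-0.70 ± 0.13), which packages mitochondrial DNA, Lrpprc (-1.25 ± 0.14), which stabilises mitochondrial mRNA, and the nuclear receptor Esrra (-0.98 ± 0.15). In glycolysis, 13 genes were higher and 6 lower of 20: the lactate carrier Slc16a1 (6.26 ± 0.15) and the glucose carrier Slc2a1 (5.59 ± 0.14), both known at the blood-brain barrier, were among the higher ones, and the hexokinase Hk2 (-3.13 ± 0.15) among the lower.

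**Figure D2:**
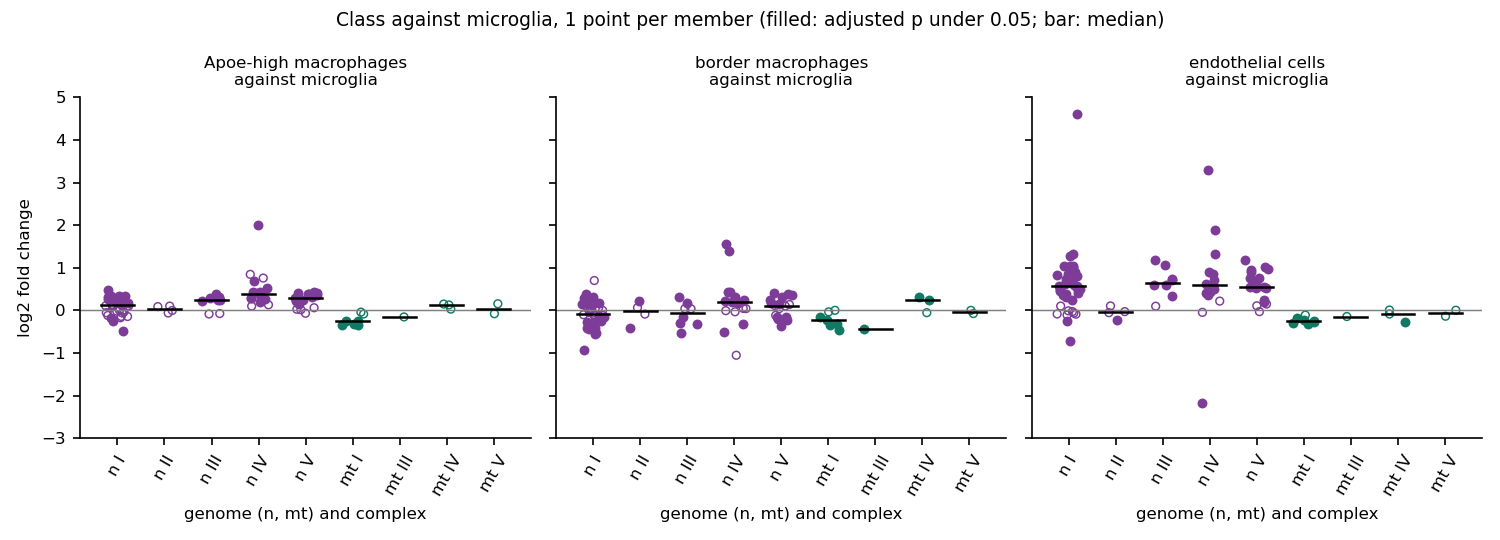
Log2 fold change of each tested member against microglia in Apoe-high macrophages, border macrophages and endothelial cells, grouped by genome (n, nuclear; mt, mitochondrial) and complex. Filled points passed an adjusted p of 0.05, and bars mark medians. In endothelial cells most nuclear points of complexes I, III, IV and V lie above 0, with medians between 0.56 and 0.65.

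The plot of fold changes by complex also shows single isoform genes far from the rest. The largest endothelial log2 fold changes were in Ndufa4l2 (4.62 ± 0.49) and Cox4i2 (3.30 ± 0.48), hypoxia-responsive paralogs of Ndufa4 and Cox4i1 that are known in pericytes. Ndufa4l2 stood at 24.3, 35.1, 2.36 and 29.1 CPM in endothelial cells, from 45, 46, 3 and 38 UMIs, and at 0.447 to 1.48 CPM in microglia. Hevin 1 was thus far below the other 3 libraries. Mural cell markers moved with it: their summed level in the endothelial class was 536, 481, 48.8 and 512 CPM. In a comparison added after the data had been seen, endothelial cells with a UMI of a mural marker (81, 53, 41 and 36 cells) were left out. Of all members 71 were then called, against 74 with these cells. The log2 fold change of Ndufa4l2 was then 1.08 (adjusted p = 0.238) and that of Cox4i2 1.66 (adjusted p = 0.0296).

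Other isoforms differed between classes at low levels. Cox7a1, the heart and muscle form of a small complex IV subunit, stood at 3.23, 3.81, 3.15 and 3.82 CPM in endothelial cells (4 to 6 UMIs each) and at 0.815 to 0.867 CPM in microglia (log2 fold change 1.88 ± 0.42, adjusted p = 0.00197). It was also higher in border macrophages, at 2.38, 2.04, 3.96 and 3.44 CPM (1.56 ± 0.29). Cox6a2, the muscle form of subunit 6a, was the member that fell most in endothelial cells, at 2.69, 1.52, 1.57 and 0.765 CPM against 6.16 to 7.49 CPM in microglia (-2.17 ± 0.35, adjusted p = 0.000159). It shares 70 exon bases with the integrin gene Itgad on the other strand. Both endothelial values rest on 1 to 6 UMIs per library.

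Cox6b2, known as the testis form of subunit 6b, was called higher than in microglia in both macrophage classes and in endothelial cells. With cells thinned to 1000 UMIs the endothelial sign turned, and Cox6b2 had a log2 fold change of -0.42 there. It stood at 3.67, 3.26, 5.85 and 3.97 CPM in microglia. In Apoe-high macrophages it stood at 17.9, 17.7 and 18.9 CPM (2, 387 and 319 UMIs in mCherry 1, Hevin 1 and Hevin 2), above every microglial value. The log2 fold change was 2.00 ± 0.16 (adjusted p = 3.13e-33), and without Hevin 2 it was 1.79 (adjusted p = 0.147). The Apoe-high fit had 2 residual degrees of freedom, so its very small p-values rest mainly on the spread pooled over genes. In border macrophages it stood at 11.6, 8.17, 17.2 and 12.5 CPM (1.39 ± 0.14, adjusted p = 7.46e-06). The main form Cox6b1 had log2 fold changes of 0.29 ± 0.07 in Apoe-high and 0.20 ± 0.05 in border macrophages. Cox8b, Cox8c, Cox7b2 and Ndufb11b were at or near 0 in all 4 classes, with at most 0.787 CPM.

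**Figure D3:**
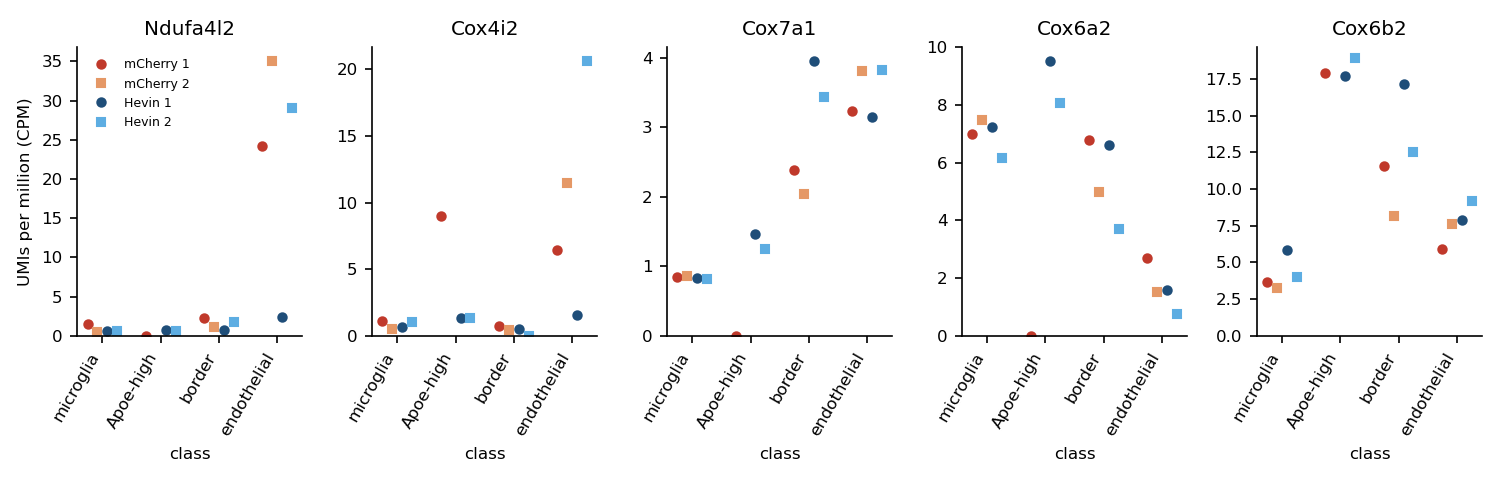
Level in CPM of 5 isoform genes in 4 classes, with 1 point per library. Ndufa4l2 and Cox4i2 are high in endothelial cells of 3 libraries and low in Hevin 1, whereas Cox6b2 is highest in Apoe-high macrophages, between 17.7 and 18.9 CPM. The Apoe-high class of mCherry 2, with 15 cells, is not drawn.

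As the plot of isoform genes shows, Cox6b2 held its level in the single mCherry library drawn for Apoe-high macrophages, though from 2 UMIs.

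In Apoe-high macrophages the nuclear members were higher than in microglia in complexes III, IV and V and in part of complex I, by small amounts. Of 83 nuclear members 46 were higher and 3 lower, with a median log2 fold change of 0.21, where the median of all 16021 genes tested was -0.02 and 18.4% were called higher and 19.2% lower. Complex V had 13 higher of 17, complex III 6 of 8, complex IV 11 of 16 and complex I 16 higher and 3 lower of 38. None of the 4 complex II genes was called. With library totals in place of TMM, 41 nuclear members were higher and 11 lower, with a median of 0.14, so the number of lower calls depended on scaling. The fit had 3 libraries with 27 Apoe-high cells in mCherry 1, and its calls rest on both Hevin libraries: without Hevin 1, 2 of all 100 members were called, without Hevin 2, 1, and in the Hevin libraries alone 67, against 54 in all.

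Among called members, Cox5a had the largest log2 fold change in Apoe-high macrophages after Cox6b2. It stood at 296, 259 and 245 CPM in mCherry 1, Hevin 1 and Hevin 2, against 158, 176 and 155 CPM in microglia of those libraries. The log2 fold change was 0.68 ± 0.06 (adjusted p = 2.28e-25), and it passed the threshold in each of the fits without 1 library (0.68 to 0.76, adjusted p up to 0.0434). Cox5a shares 269 exon bases with Gm26631 on the other strand. Cox8a (0.53 ± 0.08) and Cox7a2 (0.44 ± 0.07) of complex IV, and Atp5k (0.42 ± 0.06), Atp5l (0.41 ± 0.07) and Atp5h (0.40 ± 0.07) of ATP synthase, came next. Atp5h, with its ETS motif above, stood at 341, 280 and 275 CPM in Apoe-high macrophages and at 217, 224 and 219 CPM in microglia. Ndufb1 was the highest in complex I (0.47 ± 0.07), and the annotation lists its counted feature as a noncoding RNA that shares 147 exon bases with Cpsf2 on the other strand.

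All 3 genes of the ATP synthase c ring were higher in Apoe-high macrophages (Atp5g2 0.31 ± 0.07, Atp5g3 0.22 ± 0.06 and Atp5g1 0.15 ± 0.06). Core subunits of complex I were not carried along: of 7, Ndufv2 was higher (0.17 ± 0.07), Ndufs8 (-0.17 ± 0.06) and Ndufv1 (-0.24 ± 0.09) were lower, and the median was -0.14. Beside the module, 73 of 81 cytosolic ribosomal protein genes were higher and 1 lower, and 28 of 78 mitochondrial ribosomal protein genes were higher and 2 lower. Krebs cycle genes had 1 higher and 4 lower of 18 (Suclg2 -0.73 ± 0.07, of succinyl-CoA synthetase), and glycolysis 4 higher and 8 lower of 20, with the lactate dehydrogenase Ldhb at -1.55 ± 0.08. The inner membrane carrier Ucp2 was higher (0.92 ± 0.07), as was the antioxidant peroxiredoxin Prdx5 (0.70 ± 0.07).

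In border macrophages the nuclear members were split, with 27 higher and 27 lower than in microglia of 83 and a median log2 fold change of 0.04. Over all 15247 genes tested the median was -0.03, and 28.4% were called higher and 30.4% lower. The split depended on scaling: with library totals in place of TMM, which shifted the median of all genes to 0.14, 47 nuclear members were higher and 13 lower. Complex IV leaned higher (9 higher, among them Cox5b-ps, and 2 lower of 16) and complex I lower (8 higher, 15 lower of 38), relative to the median gene.

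The members that fell in border macrophages included core subunits of complexes I and III. Of the 7 core subunits of complex I, 4 were lower and none higher (median -0.25), among them Ndufs8 (-0.52 ± 0.05), Ndufs3 (-0.43 ± 0.06) and Ndufv1 (-0.25 ± 0.07). Ndufs8, an iron-sulfur subunit near the ubiquinone site, stood at 119, 110, 103 and 95.8 CPM in border macrophages against 148, 136, 128 and 135 CPM in microglia, with no overlap. The core proteins Uqcrc1 (-0.33 ± 0.05) and Uqcrc2 (-0.54 ± 0.06) and the Rieske iron-sulfur protein Uqcrfs1 (-0.28 ± 0.06) of complex III were all lower. With library totals in place of TMM, Ndufs8 (-0.36), Ndufs3 (-0.26) and Uqcrc2 (-0.37) still passed the threshold. Uqcrc2 shares 504 exon bases with Pdzd9 on the other strand.

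Complex II was unbalanced in border macrophages. Sdha, the flavoprotein that oxidises succinate, had 127, 127, 127 and 133 CPM in border macrophages and 101, 98.7, 93.0 and 99.1 CPM in microglia (0.22 ± 0.05, adjusted p = 0.00231). Sdhb, the iron-sulfur subunit whose NRF1 motif is shown above, stood at 121, 112, 119 and 121 CPM against 148, 138, 143 and 135 CPM (-0.42 ± 0.05, adjusted p = 1.97e-05). The groups did not overlap for either gene, in opposite directions, and both directions held with library totals (0.39 and -0.25).

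Higher members in border macrophages were small subunits of complex IV and parts of ATP synthase. Cox5a stood at 230, 229, 262 and 235 CPM (0.42 ± 0.05, adjusted p = 1.18e-05). The c ring genes went in opposite directions: Atp5g3 was higher (0.40 ± 0.05), at 264, 268, 238 and 276 CPM against 179, 173, 179 and 172 CPM, while Atp5g1 (-0.20 ± 0.05) and Atp5g2 (-0.16 ± 0.04) were lower with TMM scaling alone (0.01 with library totals, where Atp5g1 was not called at -0.03). Atp5g1, Atp5g2 and Atp5g3 encode the same mature c subunit. Ndufa2 (0.38 ± 0.05), Atp5k (0.38 ± 0.05) and Atp5o (0.37 ± 0.05) were also higher.

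Around the module, border macrophages had more lower than higher calls in nearly every list: assembly factors 7 higher and 20 lower of 46, electron carriers 1 and 7 of 15, Krebs cycle 4 and 11 of 18, mitochondrial ribosome 12 and 34 of 78 and cytosolic ribosome 4 and 65 of 81. The complex I assembly factor Ndufaf7 (-1.12 ± 0.08) and cytochrome c, Cycs (-0.52 ± 0.06), were among the lower genes, and fumarase, Fh1 (1.17 ± 0.07), among the higher. The coactivator Ppargc1b, which drives respiratory gene expression, was higher (1.73 ± 0.15). Over all genes 28.4% were called higher and 30.4% lower. The list counts are given with TMM scaling alone, and the lean to lower calls may depend on it. With library totals, calls over all genes went from 4335 higher and 4630 lower to 5749 higher and 3233 lower.

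Apoe-high and border macrophages were compared directly in the 3 libraries that held enough of both. Of 81 nuclear members tested, 26 were higher in Apoe-high macrophages and 3 lower, where 15.7% of 13042 genes were called higher and 23.5% lower. With library totals the counts were 6 higher and 8 lower, and without Hevin 1 or Hevin 2 a single member of 100 was called, against 33 with all libraries. Ndufc2, an accessory subunit of complex I, stood at 314, 291 and 279 CPM in Apoe-high and 215, 228 and 204 CPM in border macrophages of mCherry 1, Hevin 1 and Hevin 2 (0.55 ± 0.09, adjusted p = 1.11e-06). Cox7a2l, which helps complexes III and IV join into supercomplexes, was higher (0.48 ± 0.10), and Sdha was lower (-0.35 ± 0.09).

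Ndufa9 (chr6:126821721-126849136), an accessory subunit near the ubiquinone site of complex I, was called lower than in microglia in all 3 classes. It stood at 122, 114, 111 and 108 CPM in microglia. It stood at 74.3, 63.3, 71.3 and 61.2 CPM in border macrophages (-0.92 ± 0.06, adjusted p = 9.80e-08). In endothelial cells it stood at 93.2, 77.8, 76.4 and 59.6 CPM (-0.73 ± 0.10, adjusted p = 2.49e-05). In Apoe-high macrophages it stood at 108, 74.8 and 74.3 CPM (-0.48 ± 0.06, adjusted p = 1.19e-12), and it was not called without Hevin 1 (-0.42, adjusted p = 0.532) or Hevin 2 (-0.42, adjusted p = 0.690). The microglial values overlapped neither border macrophages nor endothelial cells, and the 3 comparisons share those microglial libraries. Ndufa9 shares 67 exon bases with 1700018A23Rik on the other strand.

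Mitochondrial members differed between classes in make-up more than in total. In border macrophages mt-Co1 and mt-Co2, catalytic subunits of complex IV, were higher (0.31 ± 0.04 and 0.25 ± 0.04), and mt-Cytb, the cytochrome b of complex III, was lower (-0.44 ± 0.04, adjusted p = 2.04e-06). Of the 7 complex I genes mt-Nd1, mt-Nd2, mt-Nd3, mt-Nd4l and mt-Nd6 were lower (-0.47 to -0.16), mt-Nd4 (-0.03 ± 0.04) and mt-Nd5 (0.00 ± 0.05) were not called. In all, 2 were higher and 6 lower of 13, and with library totals 6 were higher and 4 lower.

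The make-up was also measured as the share of each gene in the summed UMIs of the 13 members, which uses no scaling between classes. mt-Cytb made up 8.77, 8.30, 8.24 and 8.08% in border macrophages against 11.3, 11.1, 10.6 and 10.7% in microglia. mt-Co1 made up 10.3, 11.6, 9.88 and 11.3% against 8.22, 8.85, 7.86 and 8.67%, and mt-Co2 13.8, 14.6, 14.3 and 14.4% against 11.3, 11.7, 11.7 and 11.6%. Border macrophages and microglia overlapped in none of these 3 genes. mt-Cytb lies at chrM:14145-15288, mt-Co1 at chrM:5328-6872 and mt-Co2 at chrM:7013-7696, all on the plus strand.

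In Apoe-high macrophages 5 mitochondrial complex I genes were lower than in microglia and no mitochondrial gene was called higher. These were mt-Nd4l (-0.33 ± 0.07), mt-Nd3 (-0.33 ± 0.09), mt-Nd1 (-0.33 ± 0.10), mt-Nd2 (-0.25 ± 0.10) and mt-Nd5 (-0.25 ± 0.07). mt-Nd1 made up 7.59, 8.36 and 7.88% of the members' UMIs in mCherry 1, Hevin 1 and Hevin 2, against 9.71, 10.1 and 10.2% in microglia. In Hevin libraries alone its log2 fold change was -0.31 (adjusted p = 1.33e-05), and without either Hevin library it was not called (-0.30 and -0.33). mt-Nd4l overlaps mt-Nd4 by 7 bases on the same strand, and reads there cannot be told apart.

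In endothelial cells 6 of the 7 mitochondrial complex I genes and mt-Co1 were lower than in microglia, against 29 of 38 nuclear complex I genes that were higher. mt-Nd4 stood at 2306, 2454, 2480 and 2340 CPM against 2602, 2348, 3131 and 2701 CPM, overlapping microglia (-0.33 ± 0.08, adjusted p = 0.00269). With library totals no mitochondrial gene was lower and 2 were higher, so the direction of these genes depended on the scaling. As a share of the 13 members mt-Nd4 was 6.53, 6.91, 6.57 and 6.61% in endothelial cells and 7.41, 8.01, 7.55 and 7.82% in microglia, without overlap. mt-Atp6 and mt-Atp8, which share 43 bases, and mt-Co3 were not called in any of the 3 comparisons.

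**Figure D4:**
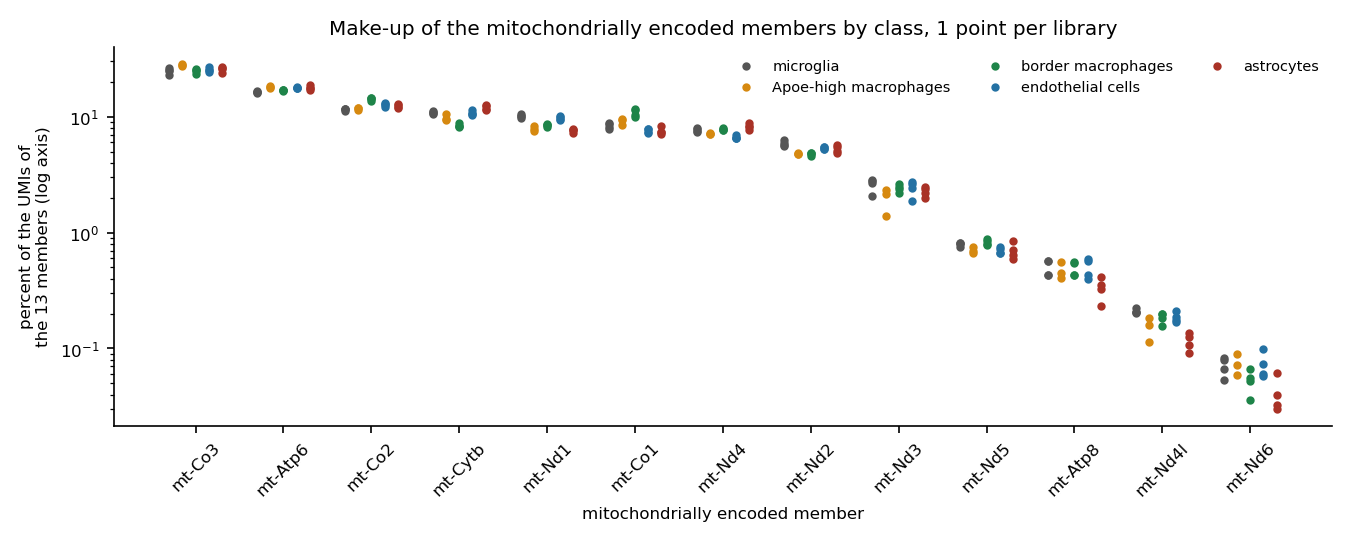
Share of each of the 13 mitochondrial members in their summed UMIs (log axis), by class, with 1 point per library. Border macrophages lie below the other classes for mt-Cytb (8.08 to 8.77%) and above them for mt-Co2 (13.8 to 14.6%). The Apoe-high class of mCherry 2 is not drawn.

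The plot of the mitochondrial make-up also shows a difference between libraries of the same group, which for mt-Atp8 followed the replicate number. In microglia mt-Atp8 made up 0.565, 0.432, 0.573 and 0.432%, and in border macrophages 0.552, 0.431, 0.546 and 0.435%. Libraries with the same number were thus close to each other across groups. The labels do not say what the number marks. The main fits of Hevin against mCherry did not use it as a block, and counts with such a block are given further below.

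Nuclear members on the X chromosome were described apart because the libraries differed in sex-linked transcripts. Ndufa1 (0.75 ± 0.09), Ndufb11 (0.85 ± 0.07) and Cox7b (0.50 ± 0.07) were all higher in endothelial cells than in microglia. None of them was called in Apoe-high macrophages (0.13 to 0.14), and Cox7b alone was higher in border macrophages (0.21 ± 0.05). The libraries differed in the sex-linked transcripts Xist (577, 1109, 1.60 and 1303 CPM in microglia) and Uty (21.5, 0.814, 35.8 and 1.27 CPM), so Hevin 1 lacked Xist and mCherry 1 held both.

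In some comparisons shorter transcripts among the nuclear members had the higher fold changes, and in others they did not. Across the nuclear members tested, Spearman's rho between fold change and median transcript length was -0.39 in endothelial cells, -0.54 in border macrophages and -0.50 in Apoe-high macrophages (83 members each, which share their libraries and are not independent replicates). For Hevin against mCherry it was -0.47 in microglia and in all cells, -0.04 in border macrophages and 0.07 in endothelial cells. It was 0.25 for Apoe-high against border macrophages. The part of transcript length in the differences above was not tested.

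The study's own contrast is Hevin against mCherry. In microglia no member passed the threshold, but the mitochondrial genes all had positive log2 fold changes. This contrast covers only cells inside the microglia gate. Cells near its P2ry12 bound (0.15 to 0.25% of UMIs) were 6.61 and 5.38% of all cells with mCherry and 15.1 and 12.7% with Hevin. Of 83 nuclear and 13 mitochondrial members tested with edgeR, 0 were higher and 0 lower, as were all 16996 genes tested (0% called in either direction). At an unadjusted p below 0.05 there were 2 nuclear and 7 mitochondrial members, and DESeq2 called 1 mitochondrial member. The summed mitochondrial share in microglia, 3.51 and 2.93% with mCherry and 4.15 and 3.45% with Hevin, overlapped between groups (difference 0.577 percentage points, exact permutation p = 0.667, a design of 2 against 2 that cannot reach the threshold). The nuclear share differed by 0.0385 percentage points (exact permutation p = 0.667).

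The mitochondrial gene with the smallest unadjusted p in microglia was mt-Nd3, a small core subunit of complex I. With mCherry it had 732 and 842 CPM and with Hevin 1168 and 926 CPM, without overlap (log2 fold change 0.46 ± 0.13, edgeR adjusted p = 0.576). mt-Co3 stood at 9329 and 6655 CPM with mCherry and 10502 and 8632 CPM with Hevin, so the groups overlapped (0.31 ± 0.17, adjusted p = 0.987). Without mCherry 1 it was the single member called (0.57, adjusted p = 0.0248), in a fit that assumes the lone mCherry library to vary like the Hevin libraries. The mitochondrial share differed with depth within libraries. In microglia of Hevin 1 it was 4.45% in cells of 1000 to 2000 UMIs and 3.76% in those of at least 4500. From 2000 to 3000 UMIs to at least 4500 it went from 3.66 to 3.41% in mCherry 1 and from 3.55 to 3.41% in Hevin 2, and in mCherry 2 from 2.72% (39 cells) to 2.96%. At 3000 to 4500 UMIs it was 3.48 and 2.91% with mCherry and 3.90 and 3.42% with Hevin, which overlapped. At 4500 UMIs and above it was 3.406 and 2.962% with mCherry and 3.756 and 3.409% with Hevin, where the lowest Hevin value lay just above the highest mCherry value.

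Over all cells, summed without regard to class, 6 nuclear members were higher with Hevin and none lower, and no mitochondrial member was called. In such sums a change in the number of cells of a type and a change in RNA per cell cannot be told apart, and Apoe-high macrophages numbered 27 and 15 with mCherry and 6949 and 4153 with Hevin. Of 83 nuclear members 6 were called, where 6.91% of 19165 genes were called higher and 4.27% lower, so the members' share was near that of all genes. With library totals in place of TMM, which shifted the median of all genes to -0.11, 2 nuclear members were higher and 1 lower, and over all genes 950 were higher and 1477 lower, against 1325 and 819 with TMM. DESeq2 called 19 nuclear members higher and 1 lower, and 4 mitochondrial members higher. The 6 were Cox6b2, Cox5a, Atp5e, Cox7a2, Uqcrh and Atp5g2. Cox6b2 stood at 5.65 and 5.16 CPM with mCherry and 14.8 and 12.2 CPM with Hevin (1.44 ± 0.14, edgeR adjusted p = 0.00166). Cox5a stood at 184 and 172 CPM and at 240 and 214 CPM (0.47 ± 0.09, adjusted p = 0.0212).

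The other 4 had smaller changes, with log2 fold changes between 0.34 and 0.42: Atp5e, the epsilon subunit of the ATP synthase head, Cox7a2, a small subunit of complex IV, Uqcrh, the hinge protein of complex III, and Atp5g2 of the c ring. None of the 6 was called within microglia, where Cox6b2 had a log2 fold change of 0.54 (adjusted p = 0.914), or within border macrophages. The number of calls moved with the libraries: without mCherry 2 it was 2 of 100 members and without Hevin 2 it was 17.

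In the same sums of all cells, 69 of 81 cytosolic ribosomal protein genes were higher with Hevin and 1 lower, and the mitochondrial ribosome had 8 higher and 1 lower of 78. Glycolysis had 1 higher and 4 lower of 20, with the lactate dehydrogenase Ldhb at -0.72 ± 0.10 and the lactate carrier Slc16a1 at -0.66 ± 0.08. Ucp2 was higher (0.74 ± 0.11), as were Prdx5 (0.62 ± 0.10) and Ppargc1b (0.79 ± 0.12). Krebs cycle genes had 0 higher and 0 lower of 18.

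Within border macrophages and endothelial cells no member was called for Hevin against mCherry. In border macrophages 0.0239% of 12568 genes were called higher and 0.0637% lower, and of the members 2 nuclear and 1 mitochondrial had an unadjusted p below 0.05. In endothelial cells 0.0798% of 10027 genes were called higher and 0.16% lower, and no member had an unadjusted p below 0.05. The median log2 fold change of nuclear members was 0.08 in microglia, 0.01 in border macrophages and -0.02 in endothelial cells, and that of mitochondrial members 0.30, 0.17 and 0.06. Whether the Hevin difference itself differed between border macrophages and microglia was tested as an interaction. No member was called (3 nuclear and 1 mitochondrial at an unadjusted p below 0.05), where 0% of 15247 genes were called higher and 0.118% lower.

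**Figure D5:**
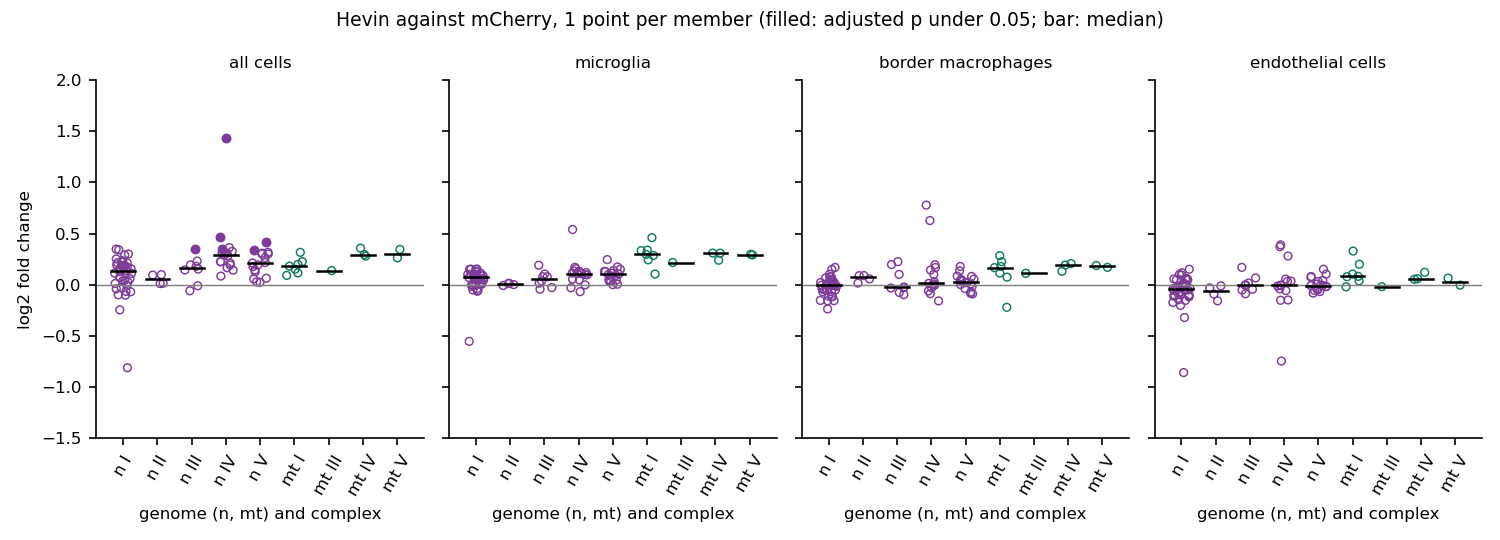
Log2 fold change of each tested member for Hevin against mCherry in sums of all cells and within microglia, border macrophages and endothelial cells, grouped by genome (n, nuclear; mt, mitochondrial) and complex. Filled points passed an adjusted p of 0.05, which 6 members did in all cells and none within a class, and bars mark medians.

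In the plot of Hevin fold changes the lowest points of all cells and of endothelial cells are Ndufa4l2. In endothelial cells Ndufa4l2 had a log2 fold change of -0.86 (adjusted p = 0.890), and without Hevin 2 it was -3.54 (adjusted p = 0.0274). That fit leaves Hevin 1, with 3 UMIs, as the lone Hevin library, and assumes that it varies like the mCherry libraries. Without Hevin 1 it was 0.00. Hevin 1 was also the library with the lowest mural marker level in this class (48.8 CPM). In the fit of endothelial cells without a UMI of a mural marker no member was called for Hevin against mCherry, and Ndufa4l2 has no value there.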

How the data were processed

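Unique molecular identifiers per gene and cell were deposited by the authors as whole-number counts, 1 matrix per library. The submitters' processing notes name mm10, while aligner, counter and strand use are not stated in the sources read here. Deposited barcodes with at least 500 UMIs and 300 genes were kept, which left all of them, and no doublet caller was used. Cells were assigned to classes by marker gates, and the counts of each class were summed per library where it had at least 20 cells. Sums were fitted over all genes with edgeR 4.0.16 (R 4.3.3; TMM, quasi-likelihood test, Benjamini-Hochberg adjustment, threshold 0.05), with the library as a block where classes of the same libraries were compared. DESeq2 1.42.0 was an alternative, beside other scalings, filters, depths and gates, and each library left out. Shares were compared with exact two-sided permutation tests (scipy 1.17.1). The edgeR fits of Hevin against mCherry in microglia and of border macrophages against microglia were also run on simulated data. The other comparisons and DESeq2 were not. The outcome is not given here, and no conclusion is drawn from it.

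Named members were the 13 mitochondrial ones, the highest member per complex, the 10 largest and 10 smallest log2 fold changes among called members with a mean of at least 10 CPM, fixed paralog sets and X-linked members. Ndufv2, Uqcrc1 and Uqcrfs1 were named after their values were seen. Pathway genes were at most 5 per list, by smallest p. Members and lists were chosen with earlier results of these data known. Promoters came from RefSeq tables on GRCm38.p6, and gene positions from GENCODE M21 (mm10).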

Additional observations from a re-analysis of the deposited data

How the results depend on the processing

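The numbers below count called members of 100, and the cause of each shift was not tested. A Hevin fit without 1 library assumes that the lone library of its group varies like the other group. Hevin against mCherry in microglia gave 0, with no filter on low counts 3, with DESeq2 1, and without 1 library each 0 to 1. In all cells it gave 6, with library totals in place of TMM 3, with no filter 13, with cells of at least 3000 UMIs 3, with DESeq2 24, and without 1 library each 2 to 17. In endothelial cells it gave 0, and without 1 library each 0 to 1. Apoe-high macrophages against microglia gave 54, with cells thinned to 1000 UMIs 14, with DESeq2 24, and without 1 library each 1 to 67. Border macrophages against microglia gave 62, and thinned 35. Apoe-high against border macrophages gave 33, with library totals 18, with no filter 50, with at least 3000 UMIs 61, thinned 10, with DESeq2 9, and without 1 library each 1 to 55. Endothelial cells against microglia gave 74 and stayed within 1.5 times of it. The Hevin difference of the nuclear share in endothelial cells was -0.0536 percentage points, and -0.0259 with at least 3000 UMIs. In border macrophages against microglia, library totals turned the sign of Atp5g2 (0.013), Ndufb4 (0.041), Uqcrh (0.0036), Cox6a1 (0.14), Cox4i1 (0.16), Ndufb11 (0.17), mt-Co3 (0.12), mt-Nd3 (0.012) and mt-Nd4 (0.14). Thinning turned Atp5mpl (-0.034) and Cox6a2 (0.15) there, and Atp5c1 (-0.048) and Cox6b2 (-0.42) in endothelial cells against microglia.

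Replicate numbers 1 and 2 occur in both groups, and the labels do not say what they mark. Deviations of same-numbered libraries correlated at 0.448 in microglia, 0.354 in all cells, 0.217 in border macrophages and 0.129 in endothelial cells. With the number as a replicate block, 6 members were called in microglia, 45 in all cells and 1 in endothelial cells. Without the library block, 28 were called in Apoe-high macrophages against microglia and 18 against border macrophages.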

Other observations

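Monocytes and MHC class II cells (62 to 184 per library) and astrocytes (40 to 83) were not fitted gene by gene, and their shares are given as values. In monocytes and MHC class II cells the nuclear share was 2.19, 2.03, 1.82 and 1.85% of UMIs and the mitochondrial share 3.29, 3.38, 3.36 and 3.37%. In astrocytes the nuclear share was 2.34, 2.44, 2.37 and 2.53%, near that of endothelial cells, and the mitochondrial share 5.03, 7.11, 7.33 and 6.55%, above every other class drawn.

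Dividing microglia (84, 46, 40 and 27 cells) had nuclear shares of 1.64, 1.70, 1.59 and 1.66%, above the 1.32 to 1.45% of microglia that were not dividing. Dividing border macrophages (17, 13, 26 and 14 cells) had 2.07, 2.21, 1.92 and 2.00%, against 1.54 to 1.67% of the rest. Dividing microglia were also deeper, with a median of 4823, 5347, 2481 and 4276 UMIs against 3235, 3938, 2056 and 3290, and these shares were not tested.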
